A study of Mus musculus with 12 samples.

Results

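The transcripts described here are those of 10 genes of hormone-secreting cells and peptide-releasing neurons: the granule proteins Chga and Chgb, the peptides Sst, Cck and Nts, the gut hormones Gcg, Pyy, Gip and Sct, and the enzyme Tph1. They were taken by name, as the transcript clusters annotated with exactly that symbol, and each had 1 cluster, among 18820 genes with a cluster of a single symbol. Their RNA was read on 12 Affymetrix Mouse Gene ST arrays, from whole hippocampus and from pieces of ileum labelled as holding Peyer's patches. Each tissue came from 3 FIRE +/+ and 3 FIRE -/- mice of C57BL/6J/CBA background, 6 weeks of age. FIRE -/- mice, also written Csf1r ΔFIRE/ΔFIRE, lack the fms-intronic regulatory element, an enhancer in an intron of Csf1r, the receptor gene on which microglia and many macrophages depend. The deletion was made with CRISPR in oocytes and the line goes back to 1 male founder, crossed to C57BL/6J and interbred, so that all FIRE -/- animals share an edited allele. All mice were perfused with saline, and by the labels each FIRE +/+ group held 2 males and 1 female and each FIRE -/- group 1 male and 2 females. The comparisons ask whether these transcripts differed between the genotypes in either tissue, and how the peptides that brain and gut share were divided between them.

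Enteroendocrine cells are single hormone-secreting cells scattered through the gut epithelium. They store peptides in dense-core granules, built with the help of granins such as the products of Chga and Chgb, and release them when nutrients arrive. Neurons use the same granules and several of the same peptides, and in the hippocampus somatostatin and cholecystokinin mark separate classes of inhibitory interneurons. The position along the intestine matters for the hormones: glucose-dependent insulinotropic polypeptide (Gip) comes mainly from the upper small intestine, whereas proglucagon (Gcg), peptide YY (Pyy) and neurotensin (Nts) are typical of the ileum and beyond.

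Signals are log2 values after robust multi-array averaging (RMA), so that 1 unit is a doubling, and signals of different genes cannot be ranked against each other because each has its own probes. Over all arrays values ran from 0.50 to 12.99 and array medians from 4.29 to 4.46. The genotype label was checked with Csf1r, whose signal in hippocampus was 8.15 to 8.34 on the FIRE +/+ arrays and 3.58 to 3.69 on the FIRE -/- arrays, and whose ranges in ileum overlapped, at 7.39 to 8.17 and 6.44 to 7.53. The tissues matched their names, with a mean signal of 10 epithelial markers of 10.98 to 11.12 in ileum and 3.39 to 3.77 in hippocampus, and a mean of 10 hippocampal neuron markers of 10.59 to 10.80 in hippocampus and 5.08 to 5.47 in ileum. The array of hippocampus FIRE -/- replicate 2 goes against its label, which says female, with a signal of 2.44 for Xist and 6.18 for the Y-linked Eif2s3y. The ileum arrays of FIRE +/+ replicate 2 and FIRE -/- replicate 1 stand apart in B cell markers, with a mean over 10 markers of 7.27 and 7.42 against 3.29 to 3.57 on the other 4. Those 4 arrays go against the label of Peyer's patches, which are rich in B cells. The B cell antigen Ms4a1 had a signal of 2.14 to 2.68 on them, near the 1.85 to 2.26 of hippocampus. The follicular receptor Cr2 had 2.30 to 2.44 on them, near the 2.21 to 2.41 of hippocampus. On the first pair Ms4a1 had 7.66 and 7.68 and Cr2 had 6.52 and 7.06. Not every B cell marker was near hippocampus on those 4 arrays. Cd79b had 5.26 to 5.94 on them against 3.11 to 4.48 in hippocampus. Cd79a had 3.37 to 5.59, highest in FIRE -/- replicate 2, against 2.48 to 2.93 in hippocampus. The last digits of the array codes in the labels, 07 or 09, are not even over the groups, with 07 for the 3 hippocampus FIRE +/+ arrays and 1 hippocampus FIRE -/- array and 09 for the other 2 and for all ileum arrays. Replicate numbers are names only and pair no samples.

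**Figure D1:**
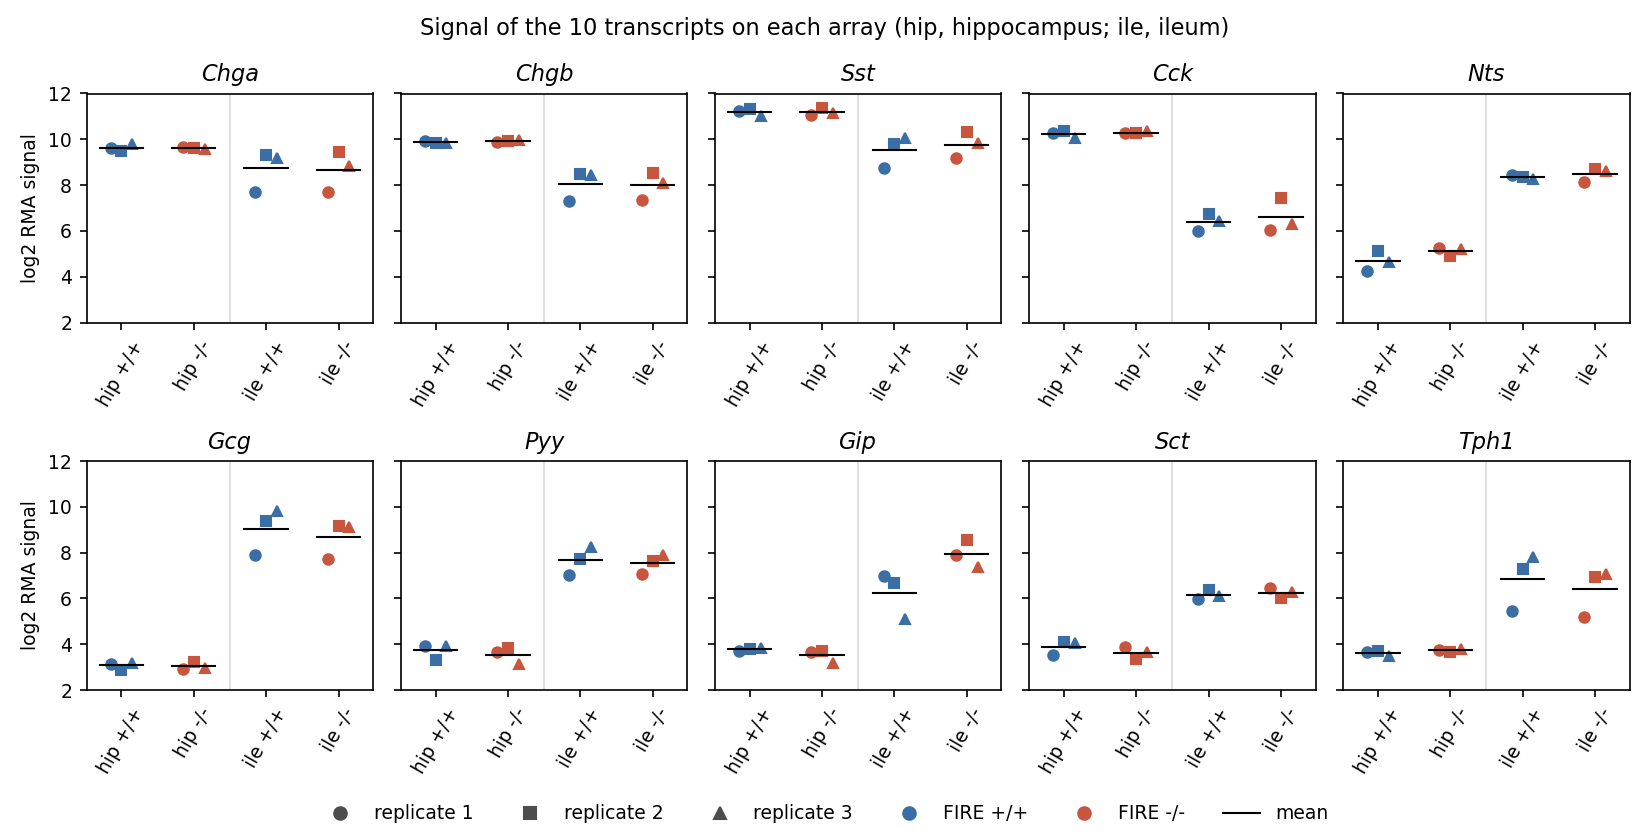
Signal of the 10 transcripts on each of the 12 arrays (y axis, log2 RMA signal, 1 panel per gene) in hippocampus and ileum of FIRE +/+ (blue) and FIRE -/- mice (red), with the replicate as marker shape and the mean of 3 arrays as a line. Each panel shows the tissues apart, and in ileum replicate 1 of both genotypes lies low for Chga, Chgb, Gcg and Tph1.

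Both tissues had signal for the granule proteins, and the peptides were divided between them. All 10 transcripts differed between the tissues at an adjusted p under 0.05 (limma, 6 arrays against 6), where 68.2% of the 21218 clusters did, and for none of the 10 did the arrays of the tissues overlap, as for 55.2% of the clusters. Chga, Chgb, Sst and Cck, 4 of the 10, were higher in hippocampus, as were 32.2% of clusters. Gcg, Pyy, Nts, Gip, Sct and Tph1, the other 6, were higher in ileum, as were 36.1% of clusters. With whole tissues, fewer cells of a type and less RNA per cell cannot be told apart.

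Chga, for chromogranin A, which helps to form dense-core granules, was the most alike between the tissues. Its signal was 9.51 to 9.78 on the 6 hippocampus arrays and 7.72 to 9.46 on the 6 ileum arrays, and the difference, hippocampus minus ileum, was 0.92 (SE 0.31, adjusted p = 0.0181). That difference was carried in large part by 2 ileum arrays, replicate 1 of each genotype. Without both it was 0.43, with an adjusted p of 0.00775. The call was lost in the FIRE +/+ arrays alone (difference 0.90, adjusted p = 0.0835), in the FIRE -/- arrays alone (0.94, adjusted p = 0.0689), without moderation of the variance (adjusted p = 0.0512) and with the array code as a block (0.96, adjusted p = 0.177). Chgb, for the related granin chromogranin B, differed more, at 9.85 to 9.98 in hippocampus and 7.30 to 8.53 in ileum, a difference of 1.88 (SE 0.22, adjusted p = 7.86e-06).

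Of the 3 peptides that neurons and enteroendocrine cells both make, 2 were higher in hippocampus and 1 in ileum. Cck, the cholecystokinin of interneurons and of duodenal I cells, had the largest difference toward hippocampus, with a signal of 10.06 to 10.35 against 6.00 to 7.42 in ileum. The mean difference of 3.77 (SE 0.21, adjusted p = 4.71e-09) is 13.6-fold. Sst, for somatostatin, an inhibitor of hormone release made by interneurons, D cells and enteric neurons, had a signal of 11.02 to 11.36 in hippocampus and 8.73 to 10.33 in ileum, a difference of 1.54 (SE 0.23, adjusted p = 6.47e-05). Nts, for neurotensin, went the other way, with 4.27 to 5.24 in hippocampus and 8.12 to 8.72 in ileum, which is 11.6-fold lower in hippocampus (difference -3.53, SE 0.15, adjusted p = 2.61e-10).

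The 5 transcripts used mainly in the gut were all higher in ileum. In hippocampus their signals, 2.88 to 4.08, lay below the median of the array on all 6 arrays, so a fold below is a ratio of signals that can understate the ratio of RNA amounts. Gcg, the precursor of glucagon-like peptides 1 and 2, had the largest difference of the 10, at 7.74 to 9.81 in ileum and 2.88 to 3.24 in hippocampus (difference -5.79, SE 0.32, adjusted p = 5.09e-09, 55.5-fold). Pyy, which slows gastric emptying and appetite, was 15.6-fold higher in ileum (difference -3.96, SE 0.22). Gip, the incretin of K cells, was 10.8-fold higher (difference -3.44, SE 0.29), and this value depended on the genotype used, at -2.47 in the FIRE +/+ arrays alone and -4.41 in the FIRE -/- arrays alone. Tph1, the rate-limiting enzyme of serotonin synthesis in enterochromaffin cells, was 7.66-fold higher (difference -2.94, SE 0.39). Sct, the precursor of secretin, which drives pancreatic bicarbonate, had the smallest of these differences, 5.42-fold (difference -2.44, SE 0.13), and its signal in ileum was only 5.99 to 6.48. The adjusted p for Pyy, Gip, Tph1 and Sct ran from 3.49e-09 to 2.45e-05, and all 6 transcripts that were higher in ileum kept their call under each of 24 alternatives.

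**Figure D2:**
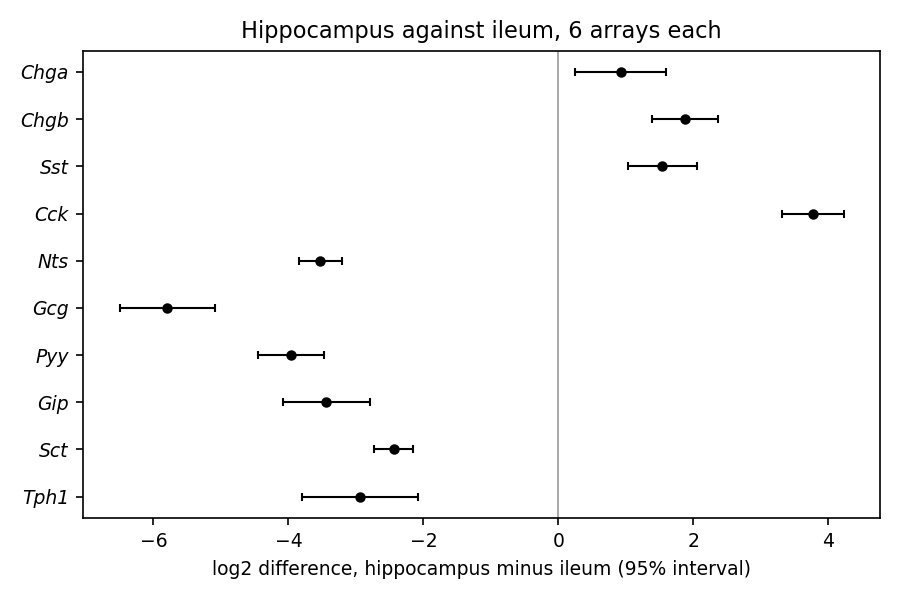
Difference in log2 signal, hippocampus minus ileum (x axis), for each of the 10 transcripts (y axis), with the mean of 6 arrays against 6 as a point and its 95% confidence interval as a bar. Cck lies farthest to the right at 3.77, Gcg farthest to the left at -5.79, and Chga closest to 0 at 0.92.

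The promoters of the 10 genes were read for the cAMP response element, the site through which cAMP signalling acts on the somatostatin gene. The bases below end 1 base before the RefSeq transcription start on GRCm38.p6, 120 for each gene, with matches to TGACGTCA, or to its shorter form TGACG on either strand, in capitals. They are shown because the 4 transcripts that were higher in hippocampus all hold a match, and Gcg stands for those without one in the bases searched. Nts and Tph1, higher in ileum, also hold a match and are not printed, so a match does not divide the genes by tissue.
Sst, chr16:23890845-23890964, minus strand: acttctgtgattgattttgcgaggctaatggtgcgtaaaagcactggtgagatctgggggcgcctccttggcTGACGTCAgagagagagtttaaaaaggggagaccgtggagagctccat
Chgb, chr2:132781522-132781641, plus strand: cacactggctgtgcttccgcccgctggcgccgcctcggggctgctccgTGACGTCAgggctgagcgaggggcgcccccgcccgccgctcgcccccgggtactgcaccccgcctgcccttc
Chga, chr12:102554821-102554940, plus strand: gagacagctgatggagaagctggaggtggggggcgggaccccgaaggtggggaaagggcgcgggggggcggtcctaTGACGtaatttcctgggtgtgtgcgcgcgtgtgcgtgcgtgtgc
Cck, chr9:121495695-121495814, minus strand: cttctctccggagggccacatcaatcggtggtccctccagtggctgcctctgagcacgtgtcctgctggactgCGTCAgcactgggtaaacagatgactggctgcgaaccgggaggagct
Gcg, chr2:62483654-62483773, minus strand: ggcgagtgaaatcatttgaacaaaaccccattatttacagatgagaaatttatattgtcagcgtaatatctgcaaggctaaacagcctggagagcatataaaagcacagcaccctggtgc

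The full element starts 48 bases before the start of Sst and 72 before that of Chgb. Chga has the shorter form 44 bases before its start, and Cck has it on the opposite strand, as CGTCA, 47 bases before. In windows of 250 bases before the start, 1.55% of 32851 RefSeq promoters hold the full element and 17.8% the shorter form, which every full element contains. Of the 6 transcripts higher in ileum, Nts has the shorter form 166 bases before its start and Tph1 has it before both of its starts. Gcg, Pyy, Gip and Sct have none in those windows. These are matches of letters, and binding was not measured.

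Other genes of the secretory pathway were read with the 10. Of 8 further granule and prohormone-processing genes measured, 7 were higher in hippocampus, none lower, with a median difference of 3.39 against -0.05 over all clusters. The largest were Vgf, a granin-like peptide precursor (4.24), Scg3, secretogranin III (4.22), Scg5, the chaperone of prohormone convertase 2 (3.69), and Pcsk1n, an inhibitor of prohormone convertase 1 (3.50). Prohormone convertase 1 itself, Pcsk1, was the exception, at 0.35 (adjusted p = 0.0821), and is named for that. Of 11 transcription factors of enteroendocrine development, 5 were higher in hippocampus and 6 in ileum. Foxa1, a factor of gut endoderm, was lower in hippocampus by 4.16 on the log2 scale, while Etv1 (2.79), Neurod1 (2.16) and Pax6 (1.66), which neurons also use, were higher there.

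Of 15 other gut hormones and enteric peptides, 4 were higher in hippocampus, 8 in ileum and 3 were not called. Galanin (Gal) at -3.82 and neuromedin U (Nmu) at -2.58 were on the ileum side, and gastrin-releasing peptide (Grp) at 3.63 and the neuropeptide PACAP (Adcyap1) at 2.47 on the hippocampus side. Of 19 receptors for the peptides described here, 12 were higher in hippocampus, 4 in ileum and 3 were not called. The largest differences were those of the neurotensin receptor Ntsr2 (5.56), the somatostatin receptor Sstr4 (4.66), and the receptors Npy2r (4.21) and Npy1r (4.03), which bind peptide YY as well as neuropeptide Y. Ntsr2 thus had its higher signal in the tissue where the signal of its ligand Nts was lower. In the serotonin group of 11 genes, 5 were higher in each tissue. The serotonin transporter Slc6a4 (-5.18) and monoamine oxidase A (Maoa, -3.79) were higher in ileum, as was Tph1, and the receptors Htr2c (4.60) and Htr1a (4.23) were higher in hippocampus. Apart from Pcsk1, each related gene named for this comparison had an adjusted p of at most 3.99e-06 in limma.

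In ileum, no transcript of the 10 differed between the genotypes at an adjusted p under 0.05 (limma, 3 arrays against 3), and 0% of the 21218 clusters did. At an unadjusted p under 0.05 there was 1, Gip, and 720 clusters (3.39%), 393 higher and 327 lower in FIRE -/-. An analysis of variance without moderation also called 0 clusters. The median difference of the 10, FIRE -/- minus FIRE +/+, was 0.03 against -0.01 over all clusters, with 5 above 0 and 5 below.

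Gip was the transcript with the largest genotype difference and the only one of the 10 whose genotypes did not overlap in ileum, where 8.04% of clusters did not. Its signal was 6.99, 6.66 and 5.12 in FIRE +/+ replicates 1, 2 and 3, and 7.88, 8.53 and 7.38 in FIRE -/- replicates 1, 2 and 3. The spread within FIRE +/+ came mostly from replicate 3, the lowest of the 6, and the gap between the genotypes, from 6.99 to 7.38, was small beside it. The means were 6.25 ± 0.997 and 7.93 ± 0.58 (SD, n = 3). The difference of 1.68 (SE 0.51, 95% interval 0.48 to 2.88) is 3.2-fold and did not pass limma's threshold (adjusted p = 0.999). Over 16 alternatives it stayed above 0, from 1.11 without FIRE +/+ replicate 3 to 2.11 with sex as a covariate, and the adjusted p was at least 0.727. Without the arrays rich in B cell markers it was 1.91.

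The 4 enterocyte markers with the largest genotype differences are given beside Gip, array by array. Lct, the brush-border lactase, which declines from jejunum to ileum, had a signal of 10.94, 8.58 and 6.50 in FIRE +/+ replicates 1, 2 and 3 and 11.45, 11.55 and 9.77 in FIRE -/- replicates 1, 2 and 3. Gata4, a factor of the upper small intestine, chosen after its values were seen, had 8.09, 6.34 and 4.56, and then 8.63, 8.69 and 7.17. Both were lowest in FIRE +/+ replicate 3 and highest in FIRE -/- replicate 2, the arrays where Gip was lowest and highest.

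Apoa4, an apolipoprotein of fat absorption, had 11.50, 10.45 and 10.02 in FIRE +/+ and 12.04, 12.23 and 11.49 in FIRE -/-. Slc10a2, the bile acid transporter of the terminal ileum, ran the other way, with 8.24, 9.16 and 9.79 and then 8.18, 5.58 and 8.76. Fabp6, the ileal bile acid binding protein, was lowest in FIRE -/- replicate 2, at 9.26, and 10.91 to 11.59 on the other 5. The other 5 enterocyte markers varied less over the 6 arrays, at 11.38 to 11.67 for Alpi, 12.31 to 12.42 for Apoa1, 12.46 to 12.60 for Anpep, 11.95 to 12.46 for Fabp2 and 11.20 to 11.83 for Slc5a1. None of the 9 was called between the genotypes, their mean signal overlapped, at 10.79 to 11.40 in FIRE +/+ and 10.98 to 11.54 in FIRE -/-, and the part that the position of the piece had in the Gip difference was not tested.

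**Figure D3:**
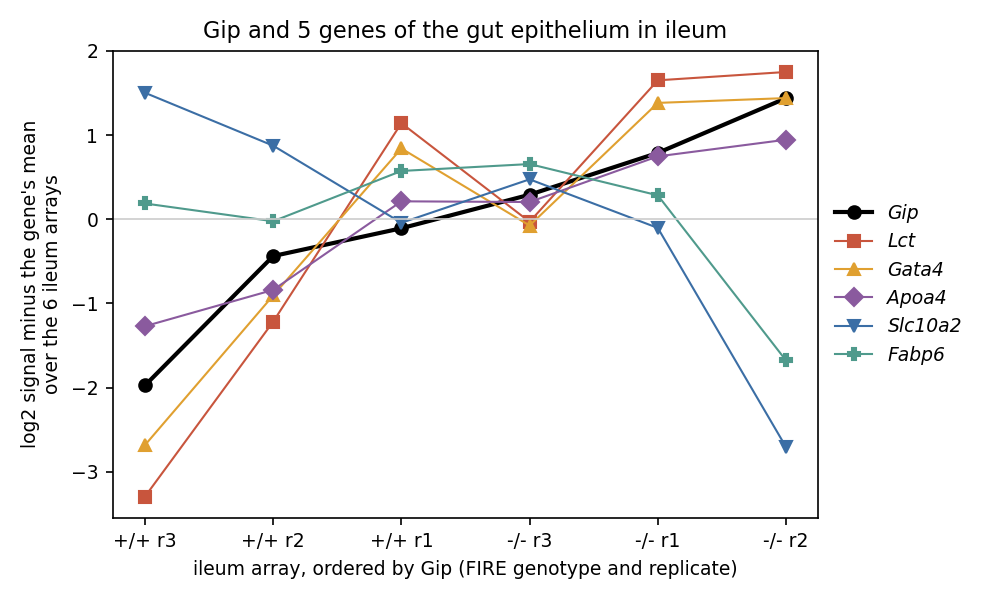
Signal of Gip and 5 genes of the gut epithelium minus each gene's mean over the 6 ileum arrays (y axis, log2), with the arrays ordered by Gip (x axis, genotype and replicate). Lct, Gata4 and Apoa4 are lowest at the left, where Gip is 5.12, and highest at the right, where it is 8.53, and Slc10a2 is highest at the left.

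The other 9 transcripts overlapped between the genotypes in ileum. Their differences ran from -0.45 for Tph1 to 0.25 for Sst. Intervals were wide for several of them, with -2.13 to 1.23 for Tph1, -1.70 to 1.01 for Gcg and -1.36 to 1.25 for Chga, and narrower for Nts (-0.28 to 0.53) and Sct (-0.28 to 0.49). A change of 2-fold, 1 on this scale, thus lies within the interval for Chga, Gcg and Tph1 in both directions, and outside it for Nts and Sct.

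**Figure D4:**
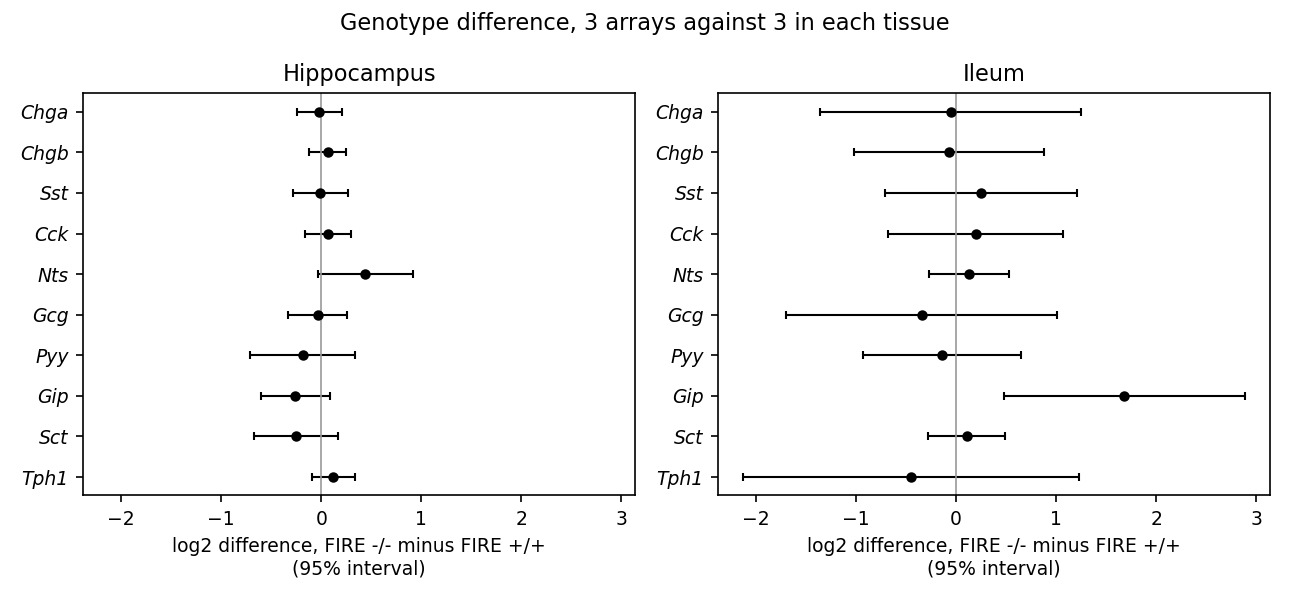
Difference in log2 signal, FIRE -/- minus FIRE +/+ (x axis), for each of the 10 transcripts (y axis) in hippocampus (left) and ileum (right), 3 arrays against 3, with 95% confidence intervals as bars. Gip in ileum, at 1.68, is the only one whose interval does not reach 0, and the ileum intervals of Tph1, Gcg and Chga are the widest.

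The wide intervals went with 1 low array in each genotype. In ileum Chga had a signal of 7.72, 9.31 and 9.17 in FIRE +/+ replicates 1, 2 and 3, and of 7.72, 9.46 and 8.86 in FIRE -/- replicates 1, 2 and 3. Gcg had 7.89, 9.37 and 9.81, and then 7.74, 9.18 and 9.12. Tph1 had 5.44, 7.28 and 7.80, and then 5.20, 6.93 and 7.05. In all 3, replicate 1 of each genotype was at least 1 log2 unit below the other 4 arrays.

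The same 2 arrays were the lowest 2 of 6 for Chgb, at 7.30 and 7.34 against 8.10 to 8.53, for Pyy, at 7.04 and 7.06 against 7.64 to 8.24, for Sst, at 8.73 and 9.17 against 9.79 to 10.33, and for Cck, at 6.00 and 6.03 against 6.31 to 7.42. That makes 7 of the 10 transcripts, from which these arrays were picked, so the count is a description, and the same holds for 12.5% of all clusters. Nts, Sct and Gip were the 3 without that order. Nts was nearly level, at 8.12 to 8.72 on the 6 arrays, and Sct at 5.99 to 6.48.

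Genes that were not used to pick the arrays gave mixed counts. The same 2 arrays were the lowest for 5 of 11 enteroendocrine transcription factors and 4 of 8 granule and processing genes. Examples, chosen after their values were seen, were Scg3 (5.56 and 5.43 against 5.92 to 6.23), Pcsk1 (6.76 and 6.38 against 7.09 to 7.49) and Neurod1 (4.86 and 4.80 against 5.20 to 5.74). For 3 of 15 other hormones and peptides, 2 of 19 receptors and 1 of 11 serotonin genes they were the lowest, and so they were for 1 of 10 epithelial markers, 4 of 10 enteric neuron markers and 3 of 8 smooth muscle markers. The mean of the 10 epithelial markers was 11.09 and 11.12 on these arrays, within 10.98 to 11.12 over all 6. The enterocyte mean was highest there, at 11.40 and 11.54, against 10.79 to 11.31. B cell markers did not share the order, with a mean of 3.29 and 7.42 on these arrays. What part the piece of tissue had in the low signals was not tested. Of these arrays, 1 fell in each genotype. Without both, the genotype differences were -0.08 for Chga, -0.44 for Gcg and -0.55 for Tph1, none called. With them they were -0.05, -0.34 and -0.45. On the arrays that remained, 2 in each genotype, Gcg and Tph1 did not overlap and were lower in FIRE -/-. Nts and Gip did not overlap there either and were higher in FIRE -/-. The share of all clusters without overlap on so few arrays was not counted, so this is a description only.

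**Figure D5:**
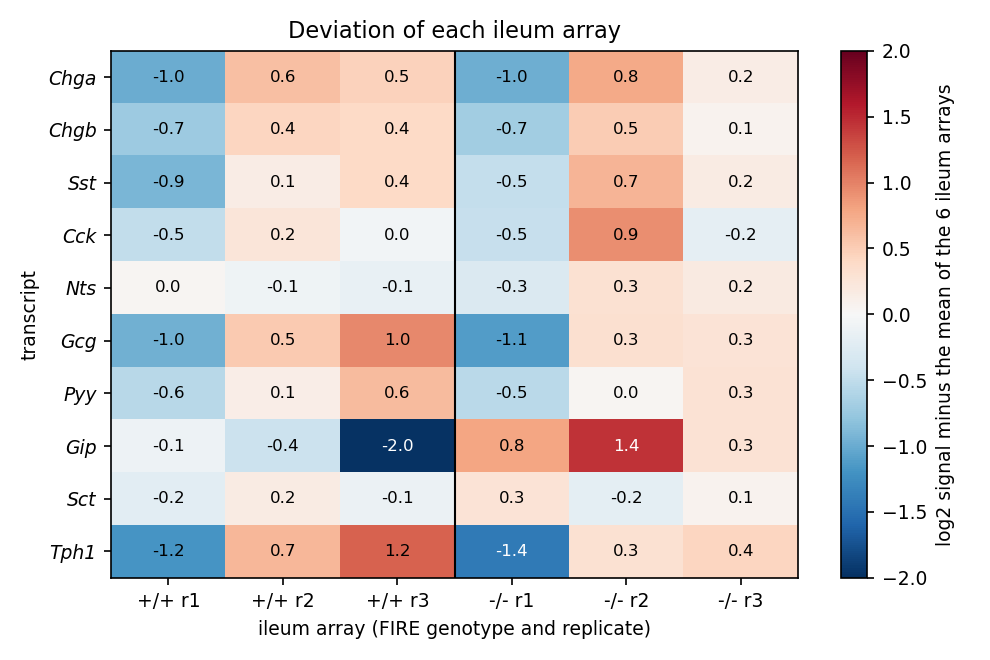
Log2 signal of the 10 transcripts (rows) on the 6 ileum arrays (columns, FIRE genotype and replicate) minus the mean of the 6, as colour and number, with a line between the genotypes. The columns of replicate 1 are below the mean for Chga, Chgb, Sst, Cck, Gcg, Pyy and Tph1 in both genotypes, and the row of Gip has its own order.

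The related genes in ileum gave no call either. None of the 8 granule and processing genes, 11 transcription factors, 15 other hormones and peptides, 19 receptors and 11 serotonin genes passed, and their medians ran from -0.12 to 0.06. The largest difference among them was that of Npy4r, the pancreatic polypeptide receptor (-1.16, SE 0.38, adjusted p = 0.999). Glp2r, the receptor of glucagon-like peptide 2, had 0.63, Insl5, a hormone of the distal gut, -0.54, and Iapp, amylin, 0.54. Maob, a monoamine oxidase, had 0.58 and Foxa1 -0.39. Signals of Iapp in ileum, 3.01 to 3.98, lay below the array medians, and those of Npy4r and Insl5 did on some arrays.

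In hippocampus, no transcript of the 10 differed between the genotypes (limma, 3 arrays against 3), where 0.448% of clusters did, 95 in all and each lower in FIRE -/-. None of the 10 had an unadjusted p under 0.05, against 1004 clusters (4.73%), and none lacked overlap between the genotypes, as 9.66% of clusters did. The unmoderated analysis of variance called 25 clusters and none of the 10. The array labelled female that reads as male was in the FIRE -/- group, and leaving it out gave no call.

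The 4 transcripts that were higher in hippocampus were nearly level there. Sst had a signal of 11.23, 11.33 and 11.02 in FIRE +/+ and 11.08, 11.36 and 11.13 in FIRE -/-, a difference of -0.01 (95% interval -0.28 to 0.27). Cck had 10.27, 10.35 and 10.06, and then 10.25, 10.28 and 10.35, a difference of 0.07 (-0.16 to 0.30). Chga differed by -0.02 (-0.24 to 0.21) and Chgb by 0.07 (-0.12 to 0.25). In these 4 each interval lies within 0.30 of 0 on the log2 scale. All 7 measured microglia markers were lower in the same FIRE -/- arrays, by a median of 3.69 on the log2 scale.

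Nts was the transcript with the largest difference in hippocampus. Its signal was 4.27, 5.11 and 4.63 in FIRE +/+ and 5.24, 4.89 and 5.19 in FIRE -/-. The difference of 0.44 (SE 0.20, 95% interval -0.03 to 0.91, adjusted p = 0.992) did not pass the threshold, and the second FIRE +/+ array lies among the FIRE -/- arrays. The difference was 0.24 without FIRE +/+ replicate 1, the lowest array, and 0.66 without FIRE +/+ replicate 2, and neither was called. The 5 gut transcripts, with signals below the array medians, differed by -0.26 (Gip) to 0.12 (Tph1). With the array code as a block the differences of Gip and Pyy were -0.61 and -0.60, against -0.26 and -0.19 without it. The 09 arrays of hippocampus were all FIRE -/-. These block values thus set 1 FIRE -/- array of code 07, replicate 3, against the 3 FIRE +/+ arrays. All 5 gut transcripts fell below a filter that asked for a signal above the array median on at least 3 arrays, which the other 5 passed. In ileum all 10 passed it.

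Markers of neighbouring brain regions varied among the hippocampus arrays. Prolactin (Prl) and proopiomelanocortin (Pomc), of the pituitary and hypothalamus, had their highest signals in FIRE +/+ replicate 3, at 4.997 and 4.55, and Trh, thyrotropin-releasing hormone, in FIRE +/+ replicate 2, at 6.12. The 6 measured hypothalamus and pituitary markers had a mean of 3.33 to 4.14 on the FIRE +/+ arrays and 3.27 to 3.28 on the FIRE -/- arrays. The 7 choroid plexus markers had a mean of 5.28 in FIRE +/+ replicate 2 and 7.36 to 8.43 on the other 5 arrays. The 7 thalamus markers had a mean of 6.81, 7.35 and 6.99 in FIRE +/+ replicates 1, 2 and 3 and of 7.11, 7.06 and 7.09 in FIRE -/- replicates 1, 2 and 3. Among them Slc17a6, a glutamate transporter of thalamic neurons, had 5.71, 7.41 and 6.50, and then 7.01, 6.71 and 6.74. The thalamus mean, Slc17a6 and Nts were each lowest in FIRE +/+ replicate 1 and next in FIRE +/+ replicate 3. Then came FIRE -/- replicate 2 in each. The mean includes Slc17a6, and none of the other thalamus markers had that order. The mean and Slc17a6 were highest in FIRE +/+ replicate 2, whereas Nts was highest in FIRE -/- replicate 1. Prkcd, with the largest genotype difference of the 7 (-0.30), was lowest in FIRE -/- replicate 3, at 6.80. The part of such tissue in the Nts difference was not tested.

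Of the related genes in hippocampus none was called. The medians of the 5 groups ran from -0.04 to 0.06, and the largest differences were those of Foxa1 (-0.48), Tph2, the neuronal form of the serotonin-making enzyme (-0.42), Htr2c (0.37) and Ghrl, the ghrelin precursor (-0.35). Signals of Foxa1 (3.13 to 4.63), Tph2 (3.31 to 4.18) and Ghrl (3.97 to 4.78) in hippocampus lay near or below the array medians, which limits these differences.

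Whether the genotype difference itself differed between the tissues was tested in 1 fit of all 12 arrays. None of the 10 passed (limma), where 0.0895% of clusters did, 19 in all, and the unmoderated analysis called 8 clusters and none of the 10. Only Gip had an unadjusted p under 0.05, as 894 clusters (4.21%) did. Its genotype difference was lower in hippocampus than in ileum by 1.94 on the log2 scale (SE 0.58, 95% interval of the signed value -3.22 to -0.66, adjusted p = 0.995). For Nts, whose differences were 0.44 in hippocampus and 0.13 in ileum, the difference between them was 0.31 (SE 0.29).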

How the data were processed

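RNA of 12 samples was hybridised to Affymetrix Mouse Gene ST arrays. The deposited values are log2 signals that the authors made from the array images by RMA in R/Bioconductor (version not given in the sources used here), which corrects background, equalises the distributions of all arrays and summarises probes. This equalising over 2 tissues can shift tissue differences. Symbols came from the platform annotation. Of 35556 clusters, 21218 with 1 symbol were tested and 1881 with several and 12457 with none were left out. No column of another sample was found.

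Each tissue was fitted alone with limma 3.58.1 in R 4.3.3 (lmFit, eBayes), FIRE -/- minus FIRE +/+. Tissues, 6 arrays against 6, and genotype by tissue were contrasts of 4 groups of 3 arrays. Tests were two-sided, Benjamini-Hochberg adjusted over all tested clusters, with a threshold of 0.05. Intervals are 95%. Fits were tested on simulated data. The labels do not say whether tissues share mice or that replicates are more than separate samples, so p-values measure the spread between these samples. The number of arrays limits the precision.

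Each of the 10 genes is described. Of each related list the counts, the median and up to 4 genes of largest difference are named, and others are said to be chosen after their values were seen or given as per-array examples. Members and lists were chosen with earlier results of these data known. Alternatives were other moderation, the unmoderated analysis of variance, sex as a covariate, array weights, a repeated quantile normalization, a filter on low values, testing all clusters, 1 fit of 12 arrays, the array code as a block, and leaving out arrays. Leaving out ileum replicate 1 of both genotypes was chosen after seeing the data. Promoters are RefSeq on GRCm38.p6.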

Additional observations from a re-analysis of the deposited data

How the results depend on the processing

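The counts of called transcripts among the 10 held their side under every alternative run, 0 in each genotype comparison and in genotype by tissue. In the tissue comparison all 10 were called, or 9 where Chga was lost in 4 of 24. No paired analysis was possible because the labels do not say which arrays, if any, come from the same mouse. Using another cluster of the same symbol was not run, since each of the 10 has 1 cluster. Clusters called in hippocampus were 25 without moderation and 41 in 1 fit of 12 arrays, against 95. For genotype by tissue they were 8 without moderation, 34 with array weights, 65 without the B cell-rich ileum arrays (FIRE +/+ replicate 2 and FIRE -/- replicate 1) and 12 to 41 with 1 array left out, against 19.

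Differences that were not called changed sign as follows, and the cause was not tested. In ileum, Chga was 0.0315 with sex as a covariate. Without the B cell-rich pair Chga was 0.71, Chgb 0.45, Gcg 0.30, Pyy 0.12 and Tph1 0.37, and without replicate 1 of both genotypes Sct was -0.0859. In hippocampus, Gcg was 0.0051 after a second quantile normalization, Sst 0.0074 with sex as labelled, which the data contradict for 1 FIRE -/- array, and Chga 0.021 with array weights. For genotype by tissue, Pyy was 0.0802 with array weights and Chga -0.0031 with the array code as a block. Without the B cell-rich pair Chga was -0.73, Chgb -0.39, Gcg -0.33 and Tph1 -0.25.

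With 1 array left out in turn, ileum differences ran from -0.56 to 0.42 for Chga, -0.46 to 0.25 for Chgb, -0.91 to 0.13 for Gcg, -0.22 to 0.47 for Cck, -0.46 to 0.14 for Pyy, -0.0061 to 0.23 for Sct, -0.15 to 0.55 for Sst and -1.15 to 0.15 for Tph1. In hippocampus they ran from -0.13 to 0.028 for Gcg, -0.0933 to 0.0613 for Sst, -0.0827 to 0.0547 for Chga, -0.0128 to 0.13 for Cck and -0.39 to 0.0213 for Pyy. For genotype by tissue they ran from -0.41 to 0.29 for Cck, -0.33 to 0.27 for Pyy, -0.55 to 0.14 for Sst, -0.44 to 0.54 for Chga, -0.19 to 0.52 for Chgb, -0.16 to 0.88 for Gcg and -0.029 to 1.27 for Tph1. Values near or below the array medians limit what the hippocampus arrays show of the gut hormones.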
